A study of Arabidopsis thaliana with 18 samples.

Results

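Vegetative cell nuclei that make the histone demethylase REF6 were compared with sperm cell nuclei of the control line, both from mature pollen of Arabidopsis thaliana Col-0. The libraries were chosen by their labels alone and make up 6 of the 18 RNA libraries of the series, 3 labelled V-Mt VC and 3 labelled WT SC. The V-Mt line makes a REF6-GFP fusion from the LAT52 promoter, a driver known to work in vegetative cells, together with a sperm histone fused to RFP under the HTR10 promoter. The labels write that second fusion as HTR10 for V-Mt VC replicate 1 and number it up to HTR12 for replicate 3, and HTR10 is the name used for all WT libraries. The line labelled WT is therefore not free of transgenes: it carries histone H2B fused to GFP under the ACTIN11 promoter and the HTR10 fusion to RFP. Plants of both lines were grown in a greenhouse under long days. Per the labels, nuclei released from pollen were sorted as GFP-positive (vegetative, VC) or RFP-positive (sperm, SC) within a uniform side scatter, and their polyadenylated RNA was amplified with a SMART-Seq kit. A further 6 pollen libraries, 3 of V-Mt SC and 3 of WT VC, entered the same model and are used here as reference points. Whether the replicates are separate plants is not in the labels, so a p-value here covers the spread between these samples alone, and part of that spread may be technical.

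A pollen grain holds one vegetative cell, which grows the pollen tube, and a pair of sperm cells that fuse with the egg and the central cell. Polycomb complexes place methyl groups on lysine 27 of histone H3 (H3K27me3), a mark of silenced developmental genes, and REF6 is one of the Jumonji enzymes that take it off. In Arabidopsis sperm this mark is known to be lost, through a sperm histone H3 that resists it and through demethylases, while the vegetative nucleus keeps it. The comparison addresses how far a vegetative nucleus given REF6 carries the RNA of a sperm nucleus, which genes stand at a like level in both, and which genes still part them.

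REF6 (AT3G48430) lies on chromosome 3 from 17935256 to 17940792 in TAIR10.1. Its level was 1303, 2248 and 3001 FPKM in the 3 V-Mt VC libraries and 24.6, 23.2 and 10.8 FPKM in WT SC. FPKM counts fragments for each kilobase of a gene relative to library size, so levels can be set side by side between genes. The groups did not overlap, and the difference was 6.74 on the log2(FPKM + 1) scale (SE 0.82, limma adjusted p = 2.71e-05). Reads of the REF6 fusion and of the gene itself cannot be told apart here. The mean was 2184 ± 851 FPKM for V-Mt VC and 19.5 ± 7.6 for WT SC (SD, n = 3, as for all means below). MGH3 (AT1G19890), the sperm histone H3 gene also called HTR10, stood at 82.9, 74.9 and 90.5 FPKM in V-Mt VC and at 6676, 7590 and 3777 in WT SC. Every WT SC library lay far above every V-Mt VC library (log2 difference −6.11, SE 0.27, limma adjusted p = 1.13e-08). The labels name an RFP fusion of HTR10 for the WT libraries and for V-Mt VC replicate 1, and number it differently for the other V-Mt VC replicates. Reads of an HTR10 fusion are not separable from those of MGH3 itself.

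The libraries differed in breadth. At 1 FPKM or more stood 18863 ± 111 genes in V-Mt VC and 12271 ± 417 in WT SC, groups that did not overlap (exact permutation test, 2-sided, p = 0.10, the smallest that 3 against 3 libraries allow). The 100 most abundant genes held 18.1% to 20.6% of all FPKM in V-Mt VC libraries, and the share in WT SC was 42.4% to 51.8%. The depth, estimated under an assumed fragment length of 250 bases, was 9600000 to 15100000 fragments in V-Mt VC and 9400000 to 15300000 in WT SC, so it spanned a like range. Over 19733 genes, rank correlations within WT SC were 0.832 for replicates 1 and 3, 0.801 for 1 and 2, and 0.780 for 2 and 3. Replicate 3 reached 0.860 with a V-Mt SC library. Genes of the chloroplast and mitochondrial genomes took 0.0432% and 0.0731% of FPKM in WT SC replicates 1 and 2 and 0.000737% in replicate 3. In the other pollen groups this share was at most 0.0161%. Which of the WT SC libraries are the unusual ones was not tested. Without replicate 3, the comparison gave 9530 higher and 3475 lower genes in place of the counts that follow. For called genes named below, the log2 difference without WT SC replicate 3 is also given where it moved by more than 1.5-fold or where the call was lost.

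Of 19733 genes tested, 10025 were higher in V-Mt VC than in WT SC (50.8%) and 3237 were lower (16.4%), at a limma adjusted p under 0.05. In all, 67.2% of genes were called, and 70.9% of genes tested had no overlap between the 3 and 3 libraries. Among calls, 7298 higher and 2234 lower genes differed by log2 2 or more. The median difference over all tested genes was 1.35 on the log2 scale, so every list below is read against that value. Counts of called genes in a list are read against the 50.8% higher and 16.4% lower. Both shares include gene models without an AGI locus, of which 82.6% were higher. Among the 17034 protein-coding genes, 45.9% were higher and 18.3% lower, with a median of 1.09. The gene lists below hold named genes, so these lower values are the closer background for them. With median-ratio scaling of the libraries the median was 1.24. Quantile normalization, which forces all libraries to one distribution, set it to 0.01 and moved the split to 5967 higher and 5119 lower. A gene can pass the filter for testing (1 FPKM in 3 of 12 libraries) through a single group, so the counts describe the tested members only. In these bulk libraries, fewer nuclei expressing a gene and less RNA per nucleus cannot be told apart.

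**Figure D1:**
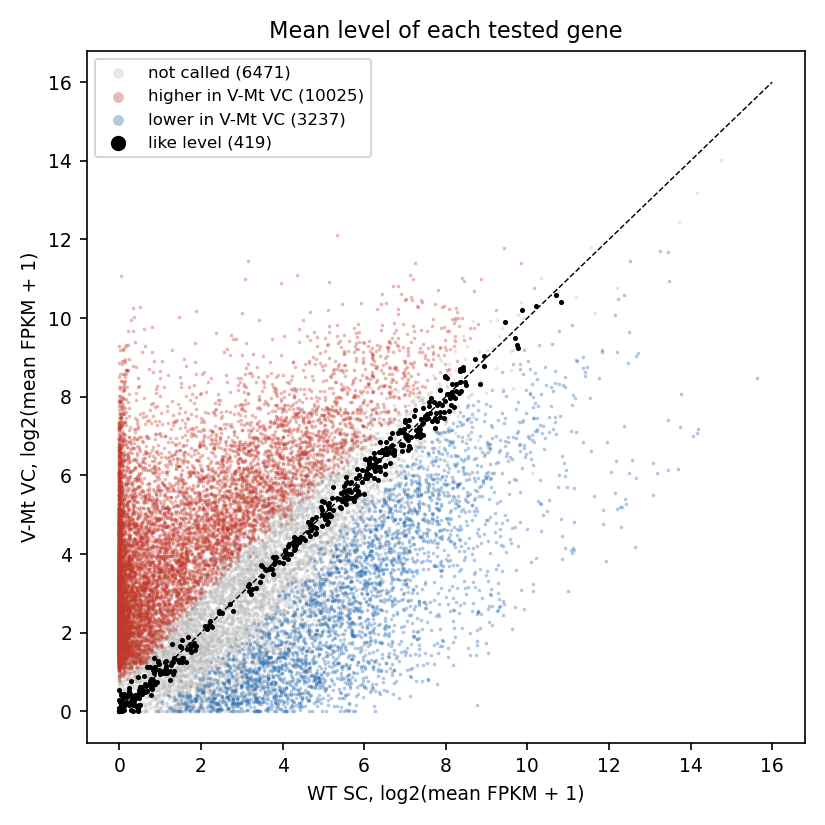
Mean level of each of 19733 tested genes in WT SC (x axis) and V-Mt VC (y axis), both as log2(mean FPKM + 1), coloured by the limma call. The 10025 genes higher in V-Mt VC crowd the left edge, where WT SC is near 0, the 3237 lower genes spread below the dashed line of equality, and 419 genes at like level lie along it.

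On or off states accounted for much of this split. At 1 FPKM or more in all 3 V-Mt VC libraries and below 1 FPKM in all 3 WT SC libraries stood 4773 genes, against 492 the other way round, while 7798 genes reached 1 FPKM in all 6. Among 6922 genes with a mean of at least 5 FPKM in both groups, 2229 were higher and 1612 lower in V-Mt VC. The rank correlation between a V-Mt VC and a WT SC library was 0.287 to 0.352 over the tested genes. For V-Mt VC it was 0.342 to 0.390 with WT VC libraries and 0.329 to 0.388 with V-Mt SC libraries. V-Mt VC libraries correlated at 0.968 to 0.972 with each other and WT SC libraries at 0.780 to 0.832. The ranges for WT SC and WT VC overlapped, with WT SC the lower. These correlations run across genes, which share the depth and preparation of their library, and carry no test.

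Most of the sperm cell regulators were lower in V-Mt VC. DUO1 is the MYB factor that drives the male germline programme, DUO3 is another regulator of germline division, and DAZ1, DAZ2, DAZ3, DAN1 and DAF1 are genes that DUO1 switches on. Of these 7 genes, 6 were lower in V-Mt VC, none was higher and DUO3 was not called, with a median of −6.49 against 1.35 for all genes. DUO1 (AT3G60460, chromosome 3, 22342321 to 22343576) stood at 35.9, 36.7 and 32.4 FPKM in V-Mt VC and at 267, 80.9 and 97.4 in WT SC. All 3 WT SC libraries lay above V-Mt VC, by 4.24-fold in the means (log2 −1.85, SE 0.48, limma adjusted p = 0.00563). WT VC held 1.17 ± 0.779 FPKM of DUO1, so V-Mt VC stood well above WT VC and below WT SC.

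The 250 bases before the annotated start of DUO1 and of 4 genes known as DUO1 targets (PCR11 is described with the membrane genes) are shown because these genes divide into 2 that came within 5-fold of WT SC (DUO1 and DAN1) and 3 that did not. Bases come from the TAIR10.1 genome in the orientation of the gene, and capitals mark AACCG or AACGG, the core of MYB-type sites, on either strand (CGGTT and CCGTT on the other).
DUO1, chr3:22343577-22343826, minus strand: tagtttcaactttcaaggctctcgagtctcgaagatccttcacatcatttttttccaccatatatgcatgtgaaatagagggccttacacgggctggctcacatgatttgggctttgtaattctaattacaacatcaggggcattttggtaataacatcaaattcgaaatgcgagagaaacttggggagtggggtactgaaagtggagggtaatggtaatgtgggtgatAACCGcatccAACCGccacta
DAN1, chr3:1257018-1257267, minus strand: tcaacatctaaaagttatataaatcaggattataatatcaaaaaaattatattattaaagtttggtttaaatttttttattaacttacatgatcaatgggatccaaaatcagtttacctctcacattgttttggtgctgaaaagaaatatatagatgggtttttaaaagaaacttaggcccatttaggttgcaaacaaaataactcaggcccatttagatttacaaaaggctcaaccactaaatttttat
DAF1, chr3:23031281-23031530, plus strand: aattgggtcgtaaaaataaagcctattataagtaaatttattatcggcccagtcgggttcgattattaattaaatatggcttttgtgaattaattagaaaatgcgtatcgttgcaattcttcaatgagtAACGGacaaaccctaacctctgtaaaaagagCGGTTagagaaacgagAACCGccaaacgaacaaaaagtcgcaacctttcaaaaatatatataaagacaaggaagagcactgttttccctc
DAZ3, chr4:16923069-16923318, plus strand: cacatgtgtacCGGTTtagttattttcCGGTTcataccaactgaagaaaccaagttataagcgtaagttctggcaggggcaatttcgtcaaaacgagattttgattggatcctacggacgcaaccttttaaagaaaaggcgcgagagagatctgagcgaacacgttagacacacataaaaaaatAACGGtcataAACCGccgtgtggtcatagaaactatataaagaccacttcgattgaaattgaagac
PCR11, chr1:25763209-25763458, plus strand: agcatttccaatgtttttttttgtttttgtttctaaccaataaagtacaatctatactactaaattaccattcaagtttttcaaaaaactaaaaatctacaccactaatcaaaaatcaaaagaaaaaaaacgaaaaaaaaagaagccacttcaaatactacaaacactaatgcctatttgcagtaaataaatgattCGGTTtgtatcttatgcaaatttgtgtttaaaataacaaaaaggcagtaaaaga
DUO1 held 2 matches, DAF1 3, DAZ3 4 and PCR11 1, while the DAN1 window held none. Among windows not shown, that of the membrane gene TET12 also held none, yet TET12 was far lower in V-Mt VC (log2 −6.44). The windows of DAZ1 and DAZ2 held 1 match each. The motif occurred in 40.0% of the 17039 windows of tested genes, in 37.6% of those of genes higher in V-Mt VC, in 45.8% of those of lower genes and in 16 of the 18 windows of the sperm regulator, membrane and fusion genes. The 8-base REF6 zinc-finger motif (CTCTGTTT, CTCTGTTC, CTCTGCTT or CTCTGCTC, both strands) occurred in 5.36% of all windows and in 3 of these 18. It was not found in the 5 windows shown. A match is a string of letters and not a measured binding site.

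DUO1's target genes fell into separate levels. DAZ1 and DAZ2, zinc-finger repressors needed for germ cell division, stood at 0.737 ± 0.465 and 0.277 ± 0.169 FPKM in V-Mt VC against 189 ± 106 and 114 ± 17.0 in WT SC. Their log2 differences were −6.58 (limma adjusted p = 2.09e-06; −7.21 without WT SC replicate 3) and −6.49 (limma adjusted p = 9.00e-08). DAZ3, a sperm zinc-finger gene, stood at 85.1, 58.9 and 64.5 FPKM in V-Mt VC and at 8734, 8173 and 16825 in WT SC, with no overlap. DAF1, an F-box gene, stood at 437, 309 and 323 FPKM against 59134, 34764 and 58331. These 2 genes were 162-fold and 142-fold higher in WT SC. DAN1, which encodes an Alba-type nucleic acid binding protein, was the exception in size. It stood at 3393, 3389.5 and 3084 FPKM in V-Mt VC and at 10012, 10828 and 12486 in WT SC, a 3.38-fold gap with no overlap (log2 −1.75, SE 0.13, limma adjusted p = 4.48e-07). In WT VC it stood at 152 ± 19.0 FPKM. Under quantile normalization the DAN1 difference changed sign to 0.45. DUO3 overlapped, at 27.6, 32.7 and 25.0 FPKM against 59.8, 24.0 and 30.7 (log2 −0.31, 95% interval −1.28 to 0.65).

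Every one of the 11 gamete membrane and fusion genes was lower in V-Mt VC, where 16.4% of all genes were lower. Their median was −6.44, with a range of −7.33 to −3.45. GCS1 (also HAP2), the fusogen that joins gametes, stood at 13.4, 16.2 and 16.0 FPKM in V-Mt VC and at 173, 195 and 160.3 in WT SC. It was the member nearest to WT SC, still 11.6-fold lower (log2 −3.45, SE 0.39, limma adjusted p = 1.43e-05). DMP9, which with DMP8 acts in gamete fusion, stood at 4.31, 4.32 and 6.62 FPKM against 947, 911 and 1032. DMP8 itself stood at 1.61 ± 0.615 FPKM against 47.7 ± 19.0. No library of either group crossed into the range of the other for any of these 3 genes.

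GEX2, a sperm surface protein for gamete attachment, averaged 289 ± 73.9 FPKM in WT SC, and V-Mt VC held 1.27 ± 0.560 (log2 −6.99). GEX1, a nuclear membrane protein of gametes, stood at 18.5 ± 4.86 FPKM against 771 ± 368 (log2 −5.24), and GEX3 at 2.08 ± 0.689 against 376 ± 196 (log2 −6.84). The tetraspanins TET11 and TET12 stood at 26.1 ± 2.86 and 1.79 ± 1.39 FPKM against 494 ± 162 and 223 ± 63.3. PCR11, a sperm-abundant membrane protein, stood at 81.2, 72.0 and 82.6 FPKM against 6112, 5289 and 14559, which is 110.1-fold. The tonoplast aquaporin TIP5;1 and the oligopeptide transporter OPT8 differed by −6.42 and −7.04. Summed over the 11 genes, V-Mt VC libraries held 215 to 225 FPKM, WT SC 14594 to 24881 and WT VC 262 to 404. The sum in V-Mt VC was thus below that in WT VC.

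**Figure D2:**
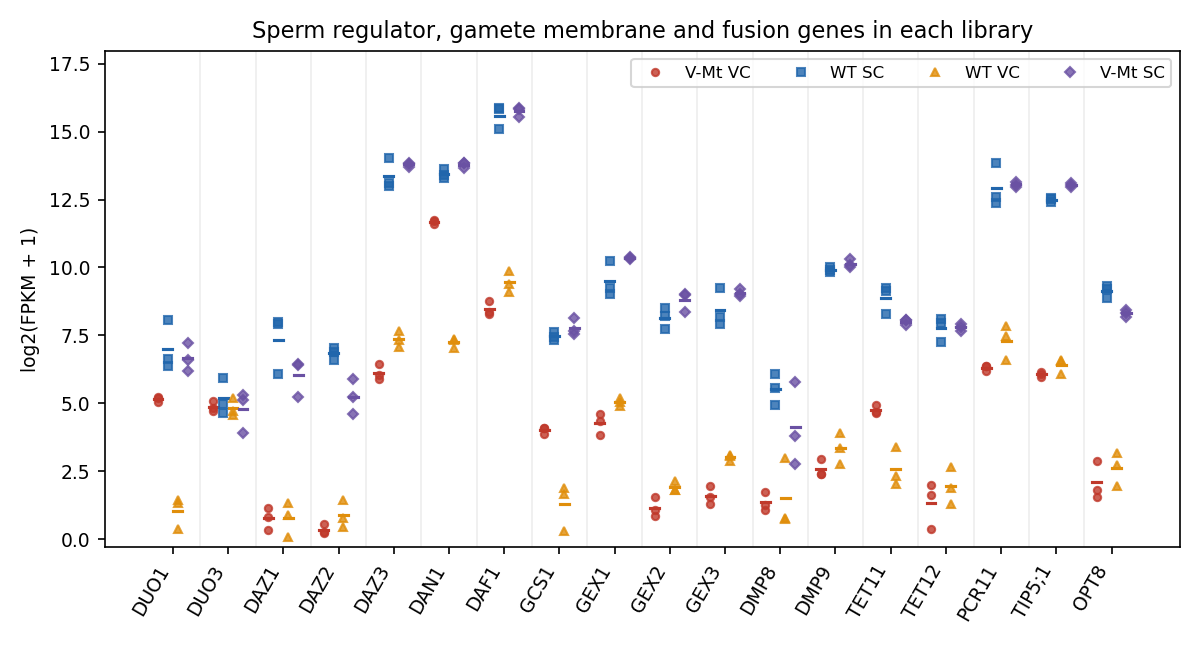
Level of the sperm regulator, gamete membrane and fusion genes as log2(FPKM + 1) in each of the 12 pollen nuclei libraries, one point per library and a bar at the group mean. V-Mt VC points (red) lie near those of WT VC (orange) for most genes, far below WT SC (blue), all groups lie together for DUO3, and V-Mt VC lies well above WT VC for DUO1, DAN1, GCS1 and TET11.

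Among 12 histone H3 genes, 4 were higher and 3 lower in V-Mt VC, against 50.8% and 16.4% of all genes. Their median was −1.13. HTR14 stood at 370.3, 428 and 323 FPKM in V-Mt VC and at 2.13, 0 and 1.78 in WT SC (log2 7.50, SE 0.90, limma adjusted p = 2.63e-05). HTR6 stood at 205, 224 and 172 FPKM against 2.21, 1.48 and 0 (log2 6.64). Both are H3 variant genes, and V-Mt SC and WT VC held them at no more than 7.61 FPKM in the mean, so they were abundant in V-Mt VC among these pollen groups. HTR5 and HTR8, which encode the replacement histone H3.3, stood at 811 ± 69.2 and 1224 ± 86.2 FPKM in V-Mt VC against 259.8 ± 84.8 and 305 ± 34.0 in WT SC. HTR4, a further H3.3 gene, overlapped between groups at 165 ± 20.8 and 224 ± 89.7 FPKM.

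The replication-coupled H3.1 genes turned on 1 library. HTR2 stood at 23.0, 23.5 and 23.6 FPKM in V-Mt VC and at 169, 210.1 and 9.71 in WT SC, where replicate 3 was the low one. HTR1 showed the same layout, at 5.56, 4.72 and 5.32 FPKM against 61.3, 76.8 and 3.47. Neither was called with all libraries. Without WT SC replicate 3 both were called, with log2 differences of −2.96 for HTR2 and −3.49 for HTR1, and the list held 6 lower genes in place of 3. HTR13 had the same low replicate, at 88.1, 52.6 and 1.54 FPKM in WT SC against a V-Mt VC mean of 0.763 ± 0.436. It was called lower (log2 −3.73, SE 1.02, limma adjusted p = 0.00784; −5.32 without WT SC replicate 3), but not in the fit on the 6 libraries alone (limma adjusted p = 0.0504). HTR12, the centromeric H3, was also lower, at 2.20 ± 0.993 against 32 ± 34.7 FPKM (log2 −2.87). Near-identical H3 copies can share reads, and how the authors' counting divided them is not given in the sources used here.

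Among 17 genes of H2A, H2B and linker histones, 4 were higher and 4 lower, against 50.8% and 16.4% of all genes. HTB8, an H2B variant gene of sperm, stood at 6.01, 3.57 and 7.23 FPKM in V-Mt VC and at 726, 665 and 684 in WT SC, a 123-fold gap (log2 −6.75, SE 0.23, limma adjusted p = 6.41e-09). HTA9, an H2A.Z gene, went the other way, at 97.0 ± 4.47 against 7.96 ± 8.87 FPKM (log2 3.90, limma adjusted p = 0.000537). HTA11, also an H2A.Z gene, stood at 14.6 ± 5.06 against 219 ± 153 (log2 −3.43; −4.35 without WT SC replicate 3), and HTA12 at 9.04 ± 1.56 against 0.05 ± 0.0866 (log2 3.25). HTB1 was not called, at 76.3, 102.8 and 96.9 FPKM against 67.6, 109.8 and 6.08. The list's median of 0.58 turned to −0.62 with quantile normalization and also without WT SC replicate 3. The WT line expresses an H2B fusion, and the part of its reads in the H2B values was not tested.

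Genes of the cell cycle and DNA replication were lower in V-Mt VC as a group. Of 28 listed, 26 were tested, 20 were lower and 2 higher, where 16.4% of all genes were lower and 50.8% higher. The median was −3.29 (−4.63 to −3.07 over the alternatives). CYCD7;1, a D-type cyclin of the male germline, stood at 74.0, 63.8 and 74.0 FPKM in V-Mt VC and at 10458, 10476 and 19063 in WT SC, 189-fold higher in the latter (log2 −7.48, SE 0.26, limma adjusted p = 6.41e-09). TSO2, a subunit of ribonucleotide reductase, which makes the precursors of DNA, stood at 41.5 ± 7.26 against 5393 ± 1199 FPKM (log2 −6.98). The mitotic kinase gene CDKB1;2 stood at 6.25 ± 1.87 against 629 ± 226 (log2 −6.42). CYCB1;2, a mitotic cyclin, stood at 11.3 ± 1.03 against 603 ± 129 (log2 −5.61). For these 4 genes the groups were far apart in every library.

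Replication licensing genes were lower too, by differing amounts. CDC6 stood at 0.870 ± 0.460 FPKM against 80.2 ± 14.6 in WT SC, and CDT1A at 6.37 ± 1.51 against 289.7 ± 68.1. Of the 6 genes for the MCM helicase on the list, MCM2, MCM3, MCM4 and MCM7 were lower, and MCM5 and MCM6 were not called. MCM4 stood at 207, 214 and 213 FPKM against 345, 311 and 449, only 1.74-fold lower (log2 −0.78, SE 0.25, limma adjusted p = 0.0182), no longer called with median-ratio scaling or without WT SC replicate 3. In WT VC it stood at 9.86 ± 2.90 FPKM, far below both. The higher genes were CYCD4;1, at 145 ± 19.0 against 42.2 ± 15.4 FPKM (log2 1.81), and FBL17, the F-box gene that degrades cell cycle inhibitors in the germline, at 12.7 ± 0.965 against 2.82 ± 3.57 (log2 2.24, lost under 1 alternative). Members outside the 4 largest differences of a list are named here and below for their known roles and were chosen after their values were seen.

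The labelled cell type was checked against vegetative markers. All 25 pollen tube receptor and signalling genes were detected in V-Mt VC and also in WT SC, so detection does not tell these groups apart. Their summed level was 3031 to 3288 FPKM in V-Mt VC, against 17820.3 to 20061 in WT VC and 3937 to 6578 in WT SC. On the FPKM scale as deposited, the sum was thus lower in every V-Mt VC library than in any WT SC library. Total FPKM was 934331 to 947190 in V-Mt VC and 1171795 to 1253920 in WT SC, and the sums are not scaled to it. Whether these genes make up a smaller share of the total in V-Mt VC was not tested. Against WT SC, 11 genes were lower and 2 higher, with a median of −0.63 (−1.31 to −0.44 over the alternatives). BUPS1, a receptor kinase that keeps the pollen tube intact, stood at 40.6, 32.5 and 32.3 FPKM in V-Mt VC and at 359, 306 and 235 in WT SC, 8.54-fold apart (log2 −3.05, SE 0.24, limma adjusted p = 8.26e-07). Its ligands RALF4 and RALF19 stood at 127 ± 27.8 and 139.9 ± 45.7 FPKM against 1039.6 ± 559 and 1211 ± 638. The coreceptor gene LLG2 stood at 59.7 ± 13.7 against 509.5 ± 224 (log2 −2.98). In WT VC, BUPS1 stood at 826 ± 24.5 FPKM, the highest of the 4 groups.

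A further 7 signalling genes were lower and are not described singly. CNGC18, the calcium channel of the tube tip, stood at 431, 493 and 377 FPKM in V-Mt VC and at 130.1, 46.0 and 112.5 in WT SC, with no overlap (log2 2.28, SE 0.37, limma adjusted p = 0.000238). ROPGEF8, an activator of ROP switches, was called higher (log2 1.74, limma adjusted p = 0.0410) but lost the call under 7 of 13 alternatives. The receptor kinase PRK2 stood at 171 ± 26.1 against 167 ± 69.2 FPKM, the kinase LIP2 at 169.9 ± 35.6 against 137 ± 42.2, and the ROP switch gene ROP1 at 175 ± 13.9 against 211 ± 14.8. These 3 genes and LLG3, whose small fall was no longer called without WT SC replicate 3, were the 4 at like level, meaning that the whole 95% interval of the difference lay within 1 log2 unit either way. ROP1 and LIP2 stood at 1056 ± 26.1 and 703 ± 8.11 FPKM in WT VC, so both nuclei compared here held them well below the control vegetative nucleus.

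Genes of the pollen wall, cytoskeleton and transport went both ways, with 12 of 30 tested members higher and 11 lower (median 0.44 against 1.35). SWEET8, a sugar exporter of the young pollen stage, stood at 827, 683 and 657 FPKM in V-Mt VC and at 50.3, 28.5 and 16.9 in WT SC (log2 4.58, SE 0.56, limma adjusted p = 2.74e-05), and at 1.92 ± 1.49 in WT VC. The sugar carriers STP2 and STP9 stood at 102 ± 8.61 and 41.9 ± 4.48 FPKM against 0.260 ± 0.306 and 0.553 ± 0.657 in WT SC. The proton pump gene AHA6 stood at 202 ± 13.5 against 7.19 ± 4.72 (log2 4.88; 4.22 without WT SC replicate 3). CALS5, the callose synthase of the pollen wall, stood at 791 ± 55.1 against 55.2 ± 6.50 (log2 3.82), and the profilin PRF4 at 797 ± 67.1 against 57.6 ± 25.4 (log2 3.88). In the opposite direction, the wall extensin LRX11 stood at 12 ± 2.44 against 209.9 ± 12.2 (log2 −4.03). The arabinogalactan proteins AGP6 and AGP11 stood at 405 ± 70.8 and 284 ± 62.9 against 1645 ± 866 and 1581 ± 802. The pectin methylesterase gene VGD1 was not called, at 778, 693 and 762 FPKM against 689, 748 and 463.

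Of 9 tested MADS, MYB and WRKY factors of pollen, 4 were higher in V-Mt VC and 1 was lower, with a median of 1.50, near the 50.8%, 16.4% and 1.35 over all genes. AGL66 and AGL104, MADS factors of the pollen-specific class, stood at 167 ± 18.5 and 541 ± 122 FPKM in V-Mt VC against 15.5 ± 7.02 and 72.2 ± 30.5 in WT SC (log2 3.44 and 2.97). The levels in WT VC were 150.1 and 571 FPKM, near those in V-Mt VC. AGL94 (log2 3.56) and WRKY34, a pollen WRKY factor (log2 2.63), were also higher, AGL30 was lower at 13.0 ± 2.06 against 48.4 ± 36.0 FPKM, and the remaining 4 were not called. AGL104 lost its call under 3 alternatives. WRKY2, which acts in pollen polarity, was at like level, at 165 ± 17.0 against 221 ± 49.0.

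Most genes listed for Polycomb complexes and H3K27 demethylation were higher in V-Mt VC than in WT SC. Of the 17 tested, 14 were higher and none was lower (median 2.36), where 50.8% of all genes were higher. One of the 14 is REF6 itself, which the V-Mt line carries as a transgene. With quantile normalization 10 were higher and 1 was lower. EMF1, a Polycomb partner that compacts chromatin, stood at 81.2, 82.3 and 92.2 FPKM in V-Mt VC and at 0.0600, 0.390 and 0.380 in WT SC (log2 6.09, SE 0.36, limma adjusted p = 9.10e-08). EMF2 and VRN2, alternative zinc-finger subunits of Polycomb repressive complexes, stood at 72.7 ± 3.91 and 384 ± 20.9 FPKM against 2.47 ± 2.32 and 36.4 ± 14.9. The methyltransferase genes CLF and SWN stood at 21.5 ± 2.78 and 29.0 ± 2.3 against 3.15 ± 1.78 and 3.56 ± 4.42, and the shared subunit FIE at 45.5 ± 2.51 against 7.12 ± 7.13. CLF was no longer called without WT SC replicate 3 (log2 2.15, limma adjusted p = 0.0508).

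FIS2 encodes the zinc-finger subunit known from the central cell and endosperm. It stood at 1045, 879 and 894 FPKM in V-Mt VC, at 214, 277 and 388 in WT SC and at 305 ± 22.6 in V-Mt SC, against 1.94 ± 0.572 in WT VC. V-Mt VC was the highest of the 4 groups and 3.21-fold above WT SC (log2 1.72, SE 0.25, limma adjusted p = 0.000108). Among further H3K27 demethylase genes, JMJ30 was called higher (log2 2.36, and 1.64 without WT SC replicate 3), while JMJ13 and ELF6 were not called. JMJ13 stood at 82.3, 71.3 and 77.1 FPKM against 99.8, 61.6 and 156.6, and ELF6 at 5.41 ± 0.115 against 16.0 ± 14.0.

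Many developmental genes known as Polycomb targets held RNA in V-Mt VC and little in WT SC. Of 24 listed genes, 18 were tested, 14 were higher and none lower, where 50.8% of all genes were higher and 16.4% lower. The median was 2.41 against 1.35. With quantile normalization 8 were higher and the median was 0.48. SEP2, a floral MADS gene, stood at 73.3, 66.9 and 62.2 FPKM in V-Mt VC and at 0.0800, 3.11 and 0.480 in WT SC (log2 5.19, SE 0.85, limma adjusted p = 0.000274). The meristem homeobox genes KNAT2 and KNAT6 stood at 68.3 ± 12.7 and 50.3 ± 2.53 FPKM against 3.79 ± 3.61 and 6.27 ± 9.90. For KNAT2 the log2 difference of 4.16 became 3.53 without WT SC replicate 3. PHE1, an imprinted endosperm MADS gene, stood at 13.8 ± 1.76 against 0.173 ± 0.300 (log2 3.68). Control sperm nuclei held little of these 4 genes, and V-Mt SC held no more than 5.74 FPKM of any in the mean. The tested members that were not called were SEP1, FLC, FUS3 and LEC1. FLC, the flowering repressor, stood at 6.64, 7.40 and 7.63 FPKM in V-Mt VC and at 2.66, 5.41 and 5.94 in WT SC, with every V-Mt VC library above every WT SC library by a small gap, and was not called (log2 0.59, 95% interval −0.27 to 1.45). FUS3, a seed maturation factor, overlapped at 12.2 ± 4.1 against 9.0 ± 8.09 FPKM, and LEC1 was carried by 1 library in WT SC, at 0, 0 and 14.7 FPKM against 2.52, 1.90 and 4.67. Of the 24 genes, 15 stood under 1 FPKM in all 3 WT SC libraries and 7 in all 3 V-Mt VC libraries. Those of the 15 that were tested passed the filter through other groups, which favours a call of higher.

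Of 18 tested DNA methylation and small RNA genes, 5 were higher and 7 lower (median −0.19), against 50.8% and 16.4% of all genes. With quantile normalization 2 were higher and 8 lower. MET1, which maintains CG methylation, stood at 4.73, 4.02 and 4.82 FPKM in V-Mt VC and at 125, 108 and 101 in WT SC (log2 −4.35, SE 0.29, limma adjusted p = 2.12e-07). Its partner VIM1 stood at 0.710 ± 0.0954 against 61.5 ± 24.0 (log2 −5.12), and the remodeller DDM1 at 32.4 ± 6.65 against 157 ± 51.3 (log2 −2.21). The demethylases went in opposite directions. ROS1 stood at 0.410, 0.520 and 1.76 FPKM against 39.6, 32.5 and 4.62 (log2 −3.45, limma adjusted p = 0.00202; −4.35 without WT SC replicate 3), while DME, known from the vegetative and central cells, stood at 5.87, 7.86 and 5.75 against 0, 0.0800 and 0.180 (log2 2.78, lost with quantile normalization). DRM2 and CMT3, which methylate outside CG sites, were higher at 14.4 ± 2.66 and 41.4 ± 0.607 FPKM against 2.87 ± 3.70 and 9.60 ± 8.13. For CMT3 the log2 difference of 2.43 became 1.59 without WT SC replicate 3.

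AGO5 and AGO9 came near the sperm level. AGO5, a germline Argonaute, stood at 121, 117 and 89.6 FPKM in V-Mt VC and at 160, 143 and 66.6 in WT SC, overlapping ranges with a log2 difference of −0.08 (95% interval −0.87 to 0.70), against 0.467 ± 0.281 in WT VC. AGO9 stood at 131, 142 and 130 FPKM in V-Mt VC against 206, 198 and 269 for WT SC, while WT VC held 3.00 ± 0.332, so V-Mt VC was 1.67-fold below WT SC (log2 −0.72, limma adjusted p = 0.0140). AGO4, which binds small RNAs that direct DNA methylation, stood at 297, 315 and 292 FPKM against 10.6 ± 9.14 (log2 5.12, SE 0.58, limma adjusted p = 1.67e-05; 4.33 without WT SC replicate 3), and V-Mt SC and WT VC held 0.693 ± 0.307 and 0.0333 ± 0.0416. AGO1 and AGO2 had close means, 25.3 and 24.8 FPKM against 23.4 and 23.2, but WT SC libraries spread from 0.630 to 64.7 and from 2.38 to 36.7, too wide to call their levels alike.

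**Figure D3:**
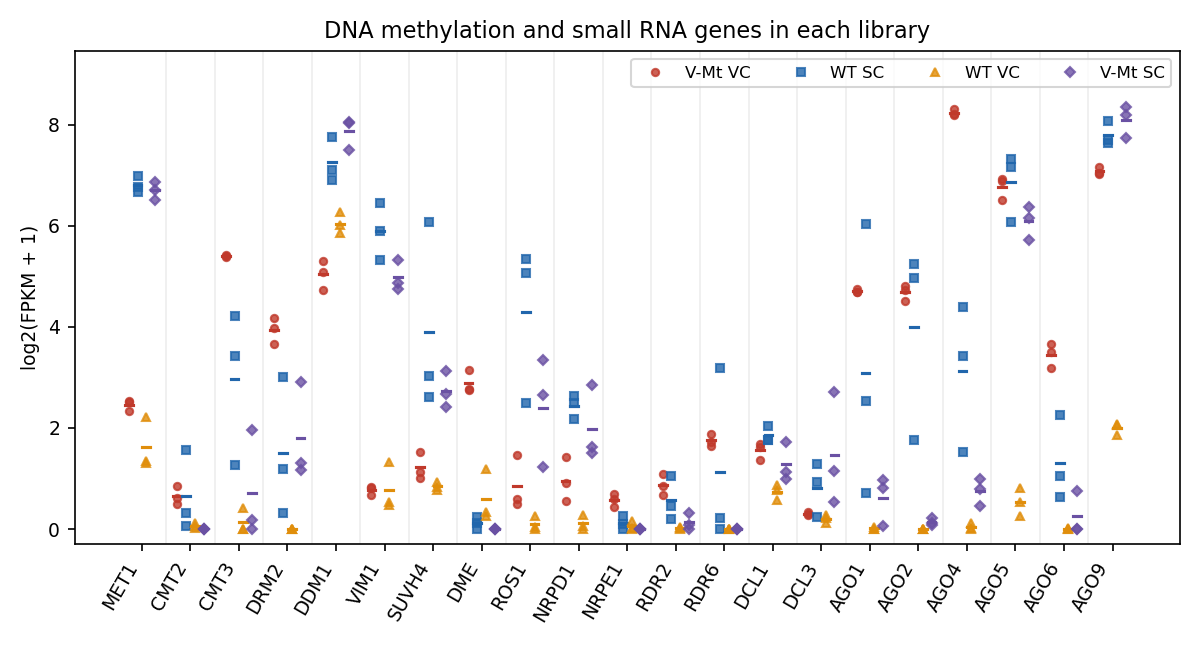
Level of DNA methylation and small RNA genes as log2(FPKM + 1) in each of the 12 pollen nuclei libraries, one point per library and a bar at the group mean. V-Mt VC (red) lies with WT SC (blue) for AGO5, far below it for MET1 and VIM1, and far above all other groups for AGO4.

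Genes at like level were few. By the interval rule, 419 of 19733 genes (2.12%) were at like level, and 277 of those 419 also had a mean of at least 5 FPKM in both groups, where they made up 4.0% of 6922 genes. A further 6064 genes were neither called nor at like level. The rule is strict for 3 against 3 libraries, since the median half-width of the 95% interval was 1.05. Within log2 2 either way lay 4167 genes. Leaving out V-Mt VC replicate 1, 2 or 3 reduced the 277 to 165, 164 and 168.

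Among genes at like level with the highest means, AT1G66500, annotated as part of a pre-mRNA cleavage complex, stood at 1440, 1741 and 1473 FPKM in V-Mt VC and at 1697, 1886 and 1412 in WT SC (log2 −0.10, 95% interval −0.47 to 0.28). AT2G01600, an ENTH/ANTH/VHS family protein, stood at 1342, 1459 and 1288 FPKM against 1785, 2080.5 and 1556. With quantile normalization their differences became 1.11 and 0.77, so their like level is one on the FPKM scale as deposited. The polyubiquitin gene UBQ14 stood at 1181 ± 37.5 against 929 ± 208 FPKM and the ribosomal protein gene AT3G60770 at 949 ± 101 against 696 ± 55.9. With quantile normalization UBQ14 became 1.23 and AT3G60770 1.14, and both were then called higher. UBQ14 was also called without WT SC replicate 2, and AT3G60770 in the fit on the 6 libraries alone. Both AT2G01600 and AT3G60770 were scarce in WT VC, at 33.4 and 18.3 FPKM.

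A list of sperm-side genes was taken from the 6 pollen libraries outside the comparison, as genes higher in V-Mt SC than in WT VC by log2 2 or more. Those libraries share their lines, though not their nuclei, with the groups compared. The list thus mixes cell type with line, and genes raised in V-Mt SC alone can enter it. REF6 itself did, at 28.9, 58.4 and 436 FPKM in the V-Mt SC libraries. Of 3486 sperm-side genes (17.7% of those tested), 1743 (50%) were lower in V-Mt VC than in WT SC, against 16.4% of all genes, 655 (18.8%) were higher and 118 (3.38%) were at like level. Their median level on the log2(FPKM + 1) scale was 3.95 in V-Mt VC and 5.13 in WT SC. The median difference was −1.22, against 1.35 over all tested genes. The largest falls were AT4G11540, a C1-domain gene, at 13.6, 16.3 and 21.8 FPKM against 5071, 4620 and 9393 (log2 −8.40, SE 0.30, limma adjusted p = 6.41e-09), AT4G35610, a zinc-finger gene (log2 −7.58), AT4G26960 (log2 −7.53) and AT5G08240 (log2 −7.49).

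The sperm-side genes at like level were named by rank. Among the 6 with the largest difference between V-Mt SC and WT VC, emb1220, a pre-mRNA processing factor, stood at 139.5, 143 and 127 FPKM in V-Mt VC and at 108, 100.1 and 133 in WT SC, against 1.79 in WT VC. The eIF3 subunit gene AT1G66070 stood at 76.0 ± 5.26 against 75.1 ± 15.1 FPKM, with 1.23 in WT VC. The ribosomal protein genes AT2G37190 and AT1G04480 stood at 94.9 ± 2.81 and 632 ± 129 FPKM against 98.6 ± 19.6 and 856 ± 64.0. The galactokinase-family gene GALK stood at 104 ± 19.5 against 98.7 ± 18.3. The remaining gene of the 6 was AT2G01600, described above. The low level of these genes in WT VC is fixed by the choice of the list.

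Of 2507 vegetative-side genes (12.7% of those tested), which were lower in V-Mt SC than in WT VC by log2 2 or more, 1016 (40.5%) were higher in V-Mt VC than in WT SC, below the 50.8% of all genes, and 403 (16.1%) were lower. Their median level was 4.38 in V-Mt VC and 3.72 in WT SC on the log2(FPKM + 1) scale, with a median difference of 0.81. The largest rises were AT1G02330, annotated as integrator-like, at 278, 305 and 290 FPKM against 1.35, 0.490 and 0.770 (log2 7.31, SE 0.30, limma adjusted p = 6.84e-09), AT3G07273 (log2 6.61; 5.77 without WT SC replicate 3), AT5G05320 (log2 6.54) and ACX5, an acyl-CoA oxidase of fatty acid breakdown (log2 6.34). CHX24, a cation exchanger gene, was a vegetative-side gene at like level, at 17.8, 19.6 and 11.1 FPKM against 14.4, 15.1 and 18.1, with 114 FPKM in WT VC. Likewise AT5G47620, an RNA-binding protein gene, stood at 125 ± 3.87 and 135 ± 49.4 FPKM in the 2 groups and at 1489.8 in WT VC. The higher level in WT VC is fixed by the choice of the list.

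**Figure D4:**
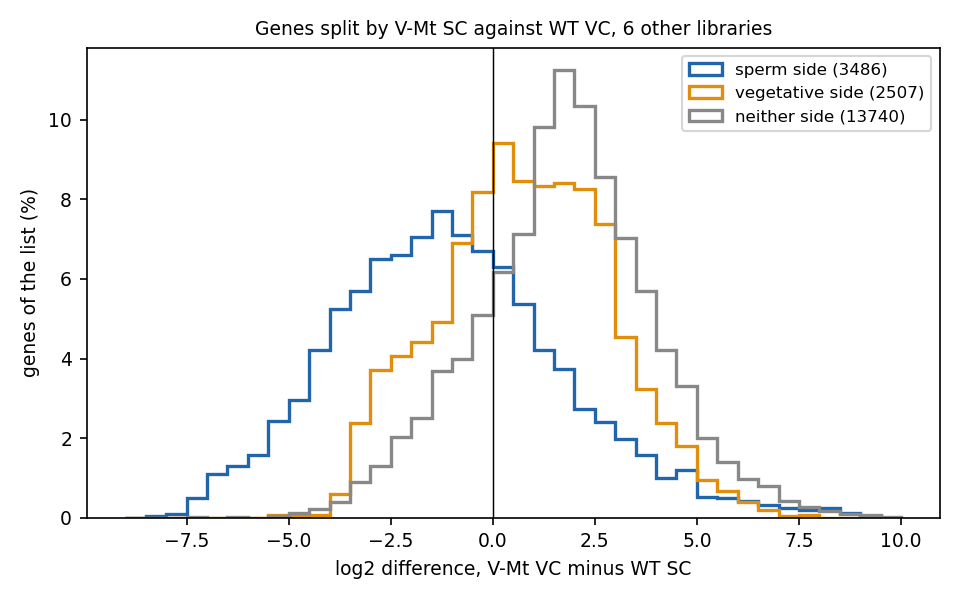
Distribution of the log2 difference V-Mt VC minus WT SC for 3486 sperm-side, 2507 vegetative-side and 13740 other tested genes, as a percentage of each list per bin. Sperm-side genes centre below 0 (median −1.22), vegetative-side genes just above it (0.81) and genes on neither side higher still (1.78).

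The 13740 genes on neither side held most of the excess. Of these, 8354 (60.8%) were higher in V-Mt VC and 1091 (7.94%) lower. Their median level on the log2(FPKM + 1) scale was 3.16 in V-Mt VC, 1.29 in WT SC, 0.75 in V-Mt SC and 0.15 in WT VC. Genes that passed the filter through V-Mt VC alone gather in this class, so its share of higher genes is partly fixed by the filter. All but 2 of the 10 largest rises by the naming rule came from this class, since NUC-L2 and CLPP5 were sperm-side by the list rule. In the control line, WT SC minus WT VC was only 0.51 for NUC-L2 (limma adjusted p = 0.575) and 0.04 for CLPP5 on the log2 scale. AT2G07640, annotated as a Rossmann-fold protein, stood at 1066, 1121 and 942 FPKM in V-Mt VC and at 0.380, 0.440 and 0 in WT SC (log2 9.69, SE 0.29, limma adjusted p = 6.41e-09). NUC-L2, a nucleolin involved in ribosomal RNA genes, stood at 550.1, 607 and 708 against 1.38, 0.170 and 0.0700 (log2 8.75). GLR3.3, a glutamate receptor channel, stood at 1685, 2057 and 2413 against 12.95, 7.51 and 1.73 (log2 8.21; 7.54 without WT SC replicate 3), and CLPP5, a plastid protease subunit, at 411 ± 86.6 against 0.160 ± 0.227 (log2 8.47). The others were AT2G29850 (9.01), AT2G42480 (8.67), AT3G45800 (8.54), AT5G34780 (8.53), AT2G05642 (8.51) and AT5G40290 (8.48), as log2 differences. None of these 10 genes exceeded 12.9 FPKM in the mean of V-Mt SC or WT VC.

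Among the 10 largest falls were CYCD7;1, DMP9, DAZ3 and the 4 sperm-side falls named above. The rest were AT5G64480 (log2 −7.48), AT5G09800, an ARM-repeat gene (log2 −7.22), and AT2G07671. AT2G07671 lies on chromosome 2 in a stretch that copies mitochondrial DNA, so its reads may belong to the mitochondrion. It stood at 0, 0 and 0.340 FPKM in V-Mt VC and at 453, 833 and 17.1 in WT SC (log2 −7.43, SE 1.56, limma adjusted p = 0.00158; −9.12 without WT SC replicate 3). Its WT SC levels were highest in the libraries with the most organellar RNA, and the part of organellar RNA in this difference was not tested.

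Ribosomal protein and proteasome genes were higher in V-Mt VC as groups. Of 97 tested genes of cytosolic-type ribosomal proteins, 70 were higher and 3 lower, with a median of 2.71 against 1.35 for all genes, and their summed level was 37234 to 40905 FPKM against 5948 to 11111 in WT SC and 939 to 1092 in WT VC. AT5G20290, for ribosomal protein S8, stood at 4199, 4791 and 4217 FPKM against 50.4, 54.2 and 12.7 (log2 7.02, SE 0.62, limma adjusted p = 2.15e-06; 6.37 without WT SC replicate 3). STV1, for a protein of the large subunit, stood at 1885 ± 89.1 against 14.5 ± 4.14 (log2 6.97). AT2G37600 stood at 419.8 ± 45.1 FPKM against 0.657 ± 1.14, and AT1G36240 at 201 ± 34.4 FPKM while it was listed at 0 in all WT SC libraries. A gene that broke the pattern was AT1G77940, at 133, 123 and 139 FPKM against 1133, 1639 and 2241 (log2 −3.60, limma adjusted p = 1.31e-07). Ribosomal genes have close copies that can share reads.

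Of 27 tested proteasome subunit genes, 22 were higher and 1 lower (median 3.51), against 50.8% and 16.4% of all genes. Their sum was 3812 to 3973 FPKM against 241 to 743. PBE1 and PAE2, subunits of the core particle, stood at 167 ± 4.24 and 180.4 ± 7.61 FPKM against 0.600 ± 0.235 and 0.787 ± 0.516. RPN1B, of the regulatory particle, stood at 539 ± 3.53 against 8.63 ± 10.3 (log2 6.48; 5.60 without WT SC replicate 3), and PBB2 at 84.1 ± 5.93 against 1.65 ± 2.25 (log2 5.32). Both lists kept their direction under all 13 alternatives, with medians of 2.3 to 3.08 and 3.22 to 3.84.

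Markers of other cell types gave differing pictures. Of 11 tested tapetum and anther wall genes, 10 were higher in V-Mt VC (2 with quantile normalization), where 50.8% of all genes were higher. Of the 16 listed, 14 stood under 1 FPKM in all 3 WT SC libraries. Those of the 14 that were tested passed the filter through other groups, which favours a call of higher. The 16 listed summed to 67.1 to 73.5 FPKM against 0 to 6.87 in WT SC and 15.6 to 23.7 in WT VC. MS2, of pollen wall lipids, stood at 31.2, 28.1 and 22.3 FPKM against 0.05, 0 and 0.170, while MS1, DYT1, ACOS5, LAP5, ABCG26 and QRT3 stayed under 1 FPKM in all 6 libraries. Of 13 tested leaf photosynthesis genes, 7 were higher and 2 lower, a share near the 50.8% of all genes, and with quantile normalization 3 were higher and 4 lower. RCA stood at 20.0 ± 1.22 against 0.297 ± 0.263 FPKM and PSBO1 at 29.2 ± 1.94 against 1.84 ± 2.12, but RBCS3B stood at 27.3 ± 1.63 against 902 ± 235, so the summed level was lower in V-Mt VC (141 to 147 against 795 to 1208). FWA, an imprinted gene of the central cell, stood at 76.3, 84.1 and 73.2 FPKM against 3.87, 0 and 0.340 (log2 5.40). The egg cell gene EC1.1 stood at 11.4 ± 2.47 against 0.667 ± 0.605, and WT VC held 6.58 ± 2.40. Its call of higher was lost with quantile normalization. Of the 9 egg and central cell genes, 5 were under 1 FPKM in all V-Mt VC libraries and 7 in all WT SC libraries. The part of such RNA in the counts above was not tested.

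Microspore and heat shock genes showed no common direction. Of 6 tested microspore genes, 2 were higher and 1 lower (median 0.07), against 50.8% and 16.4% of all genes. MYB81, a factor of the microspore stage, stood at 34.4, 31.8 and 30.1 FPKM in V-Mt VC against 0, 0.380 and 0.360 in WT SC (log2 4.74, limma adjusted p = 7.39e-05), while GEM1 was at like level at 63.4 ± 5.31 against 69.5 ± 24.2. LBD27 was also higher (log2 1.82, lost with quantile normalization). BZIP18 was lower (log2 −1.76, and −2.38 without WT SC replicate 3), a call lost under 4 alternatives. Of 11 heat shock genes 2 were higher and 3 lower, against 50.8% and 16.4% of all genes, and 6 were higher without WT SC replicate 1. The small heat shock gene HSP17.4 stood at 28.0 ± 5.39 FPKM against 719 ± 403 (log2 −4.43; −5.05 without WT SC replicate 3) and the chaperonin HSP60 at 139 ± 20.3 against 3.85 ± 2.53 (log2 5.03).

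**Figure D5:**
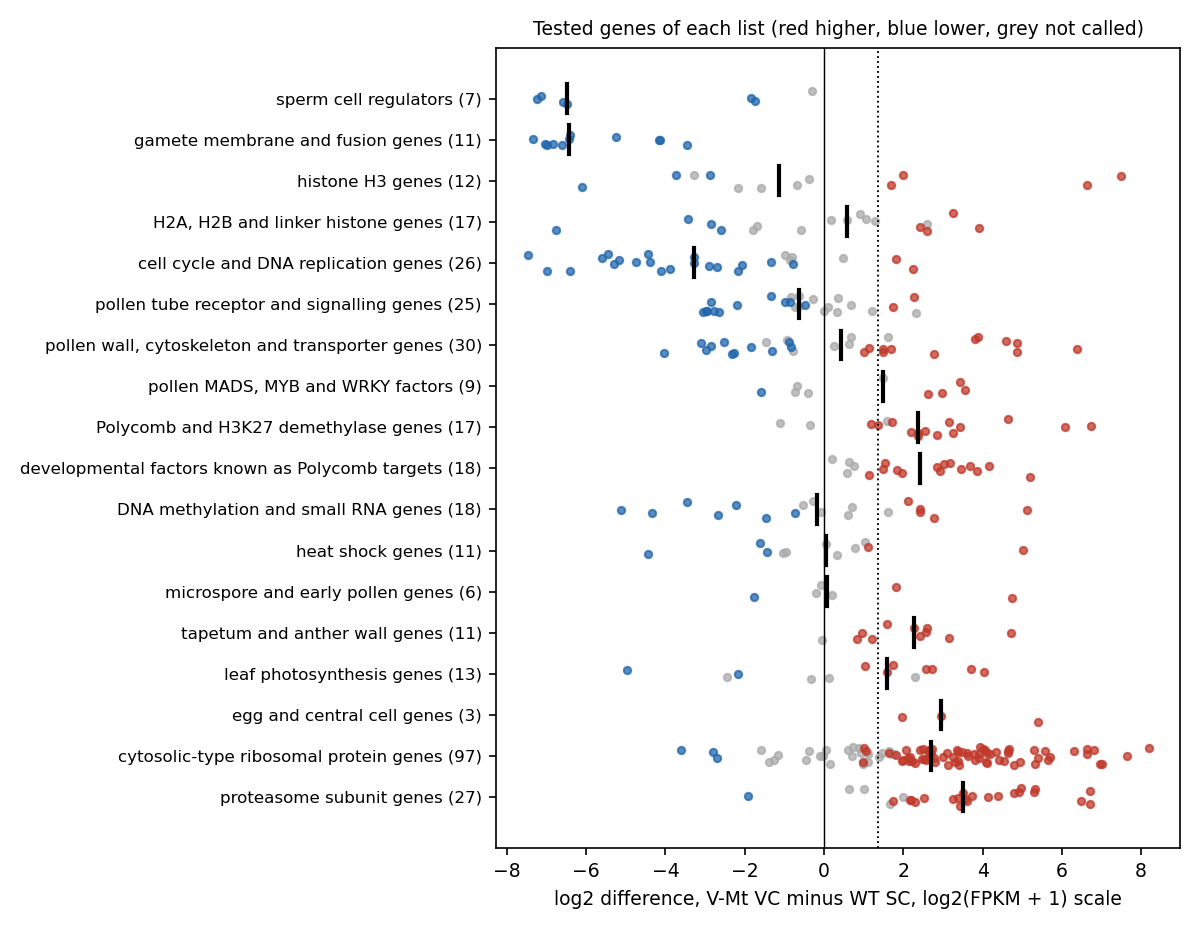
Log2 difference (V-Mt VC minus WT SC, log2(FPKM + 1) scale) of every tested member of the 18 gene lists, one point per gene, with the list median as a black bar and the median of all genes (1.35) as a dotted line. Sperm regulators, gamete genes and cell cycle genes lie far to the left, and Polycomb, ribosomal and proteasome genes to the right.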

How the data were processed

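Polyadenylated RNA of sorted pollen nuclei was sequenced. The deposited values are FPKM per gene, and per the submitters' processing notes the series used RSEM 1.3.1, Bowtie2 2.3.5, HISAT2 2.1.0 and StringTie 1.3.5 with TAIR10; which of them made this table is not stated there. FPKM scales out depth, and depth was inferred from the spacing of the lowest FPKM. Of 28424 entries, 25068 carried an AGI locus and 24862 of those matched the TAIR10.1 annotation, which gave names and promoters.

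Genes reaching 1 FPKM in 3 or more of the 12 pollen libraries were tested with limma 3.58.1 (R 4.3.3) on log2(FPKM + 1), with a mean per group, a trend in the variance and Benjamini-Hochberg adjustment. Fold changes on that scale understate the change of low genes. Means, ranks and promoter searches used Python pandas 2.3.3, and the permutation test SciPy 1.17.1. The procedure was tested on simulated data.

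The groups came from the labels. The named genes were the 10 largest called differences each way, like-level and side genes by rank, all sperm genes, and at most 4 called ones from every other list. The comparison and the gene lists were chosen with earlier results of these data known. The alternatives were a pseudocount of 0.1, other filters, median-ratio scaling, quantile normalization, a fit on 6 libraries, a replicate block and leaving out each library.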

Additional observations from a re-analysis of the deposited data

How the results depend on the processing

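Under 13 alternatives, the counts of 10025 higher and 3237 lower genes moved by more than 1.5 times with quantile normalization, to 5119 for lower genes and 5967 for higher ones. The 277 genes at like level became 165, 164 and 168 without V-Mt VC replicate 1, 2 and 3, where fewer samples widen the intervals. Leaving out 1 library at a time gave 9132 to 10141 higher genes, 2798 to 3475 lower genes, 164 to 245 at like level, 1603 to 1746 lower sperm-side genes and 835 to 1020 higher vegetative-side genes. A replicate block gave 9944 higher, 3166 lower and 236 at like level, with 1711 lower sperm-side and 988 higher vegetative-side genes. Same-numbered libraries did not deviate together (r of −0.0182, −0.0333 and −0.11), so the numbers do not pair them. With a pseudocount of 0.1 there were 9274 higher and 2966 lower genes, with median-ratio scaling 9959 and 3103, and in the fit on 6 libraries 9829 and 3149. Quantile normalization reversed AT1G66500 (1.11), AT2G01600 (0.77) and DAN1 (0.45). The cause was not tested. The medians of the heat shock, microspore, leaf photosynthesis, H2A, H2B and linker histone, and DNA methylation lists changed sign under at least 1 alternative. The number of libraries limits the like-level count, which needs a narrow interval.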

Other observations

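Gene models that carry no AGI locus in the deposited table made up 2628 of the tested entries, and 2172 of them (82.6%) were higher in V-Mt VC than in WT SC, with 104 lower and a median log2 difference of 3.02. Among 17034 protein-coding genes 45.9% were higher, with a median of 1.09. By position, 323 genes in stretches of 1 Mb with under 100 protein-coding genes were higher in 68.1% of cases (median 2.16), 1099 genes in stretches with 100 or more but under 200 in 50.9%, and 15618 genes in stretches with 200 or more in 45.1% (median 1.03). These groupings were chosen after the values were seen, and they carry no test.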
